A study of Rattus norvegicus with 20 samples.

Results

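The genes described here are 33 that make, distribute and dispose of cholesterol, followed in RNA of rat milk fat. They were chosen by name, as rows of a table of 16748 genes, and all 33 had a row and were detected in each of the 20 libraries. The milk came from 14 wild-type Sprague-Dawley dams, 7 of them given an injection of lipopolysaccharide (LPS), a bacterial outer membrane component, and 7 one of pyrogen-free saline, on postnatal day 10. The 4 groups of 5 libraries were LPS dams and saline dams milked 24 h after the injection (P11), and LPS dams and saline dams milked 2 h after it (P10). Every dam in every group was lightly anaesthetised with isoflurane and given oxytocin to let down milk; no LPS dose is given in the sources used here. The labels give 3 LPS dams and 3 saline dams as milked on both days, but the value columns carry no dam number, so libraries of the 2 days are not fully independent and were compared unpaired. P11 differs from P10 in the day, the time since injection and, for the dams milked on both days, an earlier anaesthesia and milking, and these cannot be told apart.

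Depth, estimated from the step that 1 read makes among the low values of a library, was 22200000 to 49700000 reads per library at P11 and 37900000 to 93300000 at P10, to 3 digits. All 10 markers of the luminal secretory epithelium, among them the casein gene Csn2, were present. One library went against its label. P11 saline library 2 had a mean neutrophil marker value of 6.05 on the log2 scale, against 8.34 to 9.50 in the other 4 P11 saline libraries and 5.76 to 6.12 in the P10 saline libraries. Of the 33 cholesterol genes, it was the lowest P11 saline library for 20 and the highest for 8. It lay inside the range of the P10 saline libraries for 18. The base means in the authors' deposited table for P11 stood in a nearly constant ratio (0.774 to 0.788 for the middle 90% of 1085 genes) to means of 9 libraries without it, and in a ratio of 0.702 to 0.949 to means of all 10. For that reason day differences called in saline dams are given with and without it, except those of cell type markers.

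Cholesterol is built from acetyl-CoA through mevalonate and the isoprenoid farnesyl diphosphate, which squalene synthase commits to sterols; the sterol ring is then closed and trimmed. SREBP2, the transcription factor encoded by Srebf2, is escorted out of the endoplasmic reticulum by SCAP and drives these enzymes when sterol is scarce, while INSIG proteins hold it back when sterol is plentiful. Excess cholesterol is esterified by SOAT1 or pumped out by ABCA1 and ABCG1, which the oxysterol receptors LXR alpha and LXR beta (Nr1h3 and Nr1h2) induce together with Mylip, whose product marks the LDL receptor for degradation. The milk-making cell needs cholesterol for the membrane that wraps each fat globule.

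Promoter windows of the members that changed between days are shown for a short upstream box that most of them hold. RefSeq entries (GRCr8) were at hand for 28 of the 33 members. A CCAAT box, the NF-Y binding site that SREBP-driven genes commonly carry, was found on either strand in 20 of the 28, or 71.4%, against 37.5% of all 33469 promoters of the same length. The letters GGGCGG of the Sp1 box, searched on both strands, were in 22 of the 28 (78.6%), against 33.1% of all. The classical sterol element TCACNCCAC was in 0 of 28 (1.12% of all). The LXR element, searched on both strands as AGGTCA and, 4 bases on, AGGTCA or AGTTCA, was in none of them and, as the pair of AGGTCA, in only 2 of all 33469 promoters (0.006%). Only exact matches were counted, so variant sites were missed. Both elements were so rare among all promoters that their absence from 28 is not informative. Each line below gives 80 bases from the stretch before the annotated start, read along the gene, with CCAAT (or ATTGG, its other strand) in capitals. The first 7 genes were lower at P11 than at P10 in at least 1 treatment and the last 5 were higher.
Idi1 (chr17:66547551-66547630, minus strand): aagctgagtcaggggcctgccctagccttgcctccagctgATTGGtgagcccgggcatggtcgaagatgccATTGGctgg
Fdps (chr2:176804862-176804941, minus strand): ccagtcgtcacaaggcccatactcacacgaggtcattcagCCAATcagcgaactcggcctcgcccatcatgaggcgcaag
Mvd (chr19:67414975-67415054, minus strand): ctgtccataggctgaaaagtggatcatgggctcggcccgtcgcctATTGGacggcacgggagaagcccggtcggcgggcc
Insig1 (chr4:8057923-8058002, minus strand): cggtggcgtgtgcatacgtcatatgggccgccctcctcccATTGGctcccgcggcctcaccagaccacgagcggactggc
Sc5d (chr8:51538325-51538404, minus strand): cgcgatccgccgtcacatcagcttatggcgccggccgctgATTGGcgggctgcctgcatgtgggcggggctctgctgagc
Ebp (chrX:16971337-16971416, plus strand): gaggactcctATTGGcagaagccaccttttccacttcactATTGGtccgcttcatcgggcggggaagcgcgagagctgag
Mylip (chr17:19514498-19514577, minus strand): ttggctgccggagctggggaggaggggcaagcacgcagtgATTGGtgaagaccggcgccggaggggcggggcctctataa
Soat1 (chr13:71147762-71147841, minus strand): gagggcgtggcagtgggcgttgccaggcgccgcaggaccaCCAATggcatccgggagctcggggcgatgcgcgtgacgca
Ggps1 (chr17:55958500-55958579, plus strand): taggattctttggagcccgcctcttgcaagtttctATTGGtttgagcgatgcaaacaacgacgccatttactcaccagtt
Srebf2 (chr7:115543138-115543217, plus strand): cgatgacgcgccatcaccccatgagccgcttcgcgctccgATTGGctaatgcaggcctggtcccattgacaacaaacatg
Lbr (chr13:96095734-96095813, minus strand): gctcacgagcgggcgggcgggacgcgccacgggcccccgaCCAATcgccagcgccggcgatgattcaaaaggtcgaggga
Nsdhl (chrX:155817229-155817308, plus strand): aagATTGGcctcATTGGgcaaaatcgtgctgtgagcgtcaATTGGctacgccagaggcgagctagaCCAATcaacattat
The box did not separate the directions. It was in 7 of the 9 members with an entry that were lower at P11 in either treatment, the exceptions being Acat2 and Cyp51, and in 5 of the 6 that were higher, the exception being Scap. It was also in 8 of the 13 members with an entry that were called in neither treatment.

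Members passed limma's test between the days of milking, and none did between LPS and saline dams. Values are normalised counts, recovered from the deposited log2-scale values, and differences are on that log2 scale, which understates changes of low genes. In LPS dams, 15 of the 33 members passed limma's test (Benjamini-Hochberg adjusted p under 0.05 over 14022 genes) between P11 and P10, 4 higher and 11 lower. That is 45.5% of the members, against 52.9% of all genes tested; by direction, 12.1% of members were higher, against 30.9% of genes, and 33.3% were lower, against 22%. In LPS dams 11 members did not overlap between days: 2 were higher, where 23.5% of genes were without overlap, and 9 lower, where 18.3% were. In saline dams 10 members passed, 4 higher and 6 lower, or 30.3%, against 46.8% of all genes. There 12.1% of members were higher, against 25.6% of genes, and 18.2% lower, against 21.2%. No member was free of overlap in saline dams, where 7.12% of genes were higher and 5.23% lower without overlap. Without P11 saline library 2, 22 members passed in saline dams, 14 higher and 8 lower, or 66.7%, against 56.7% of all genes. There 42.4% of members were higher, against 31.9% of genes, and 24.2% lower, against 24.8%. Then 10 members were higher without overlap, where 24.9% of genes were, and 3 lower, where 20.2% were. Of the 14022 genes, 9789 had a mean value of at least 6.5, and genes below that are harder to call. With the test limited to those 9789, 3236 genes were higher and 3052 lower in LPS dams, against 4 and 12 members. In saline dams 3013 and 2919 genes were, against 5 and 6 members. A difference between days was common among all genes, and the number of calls is not particular to the cholesterol genes. Of the 15 called in LPS dams and the 10 called in saline dams, 8 were shared and all 8 had the same sign: Ggps1 and Soat1 higher, Acat2, Pmvk, Mvd, Idi1, Fdps and Mylip lower. In RNA from a mixture of cells and globules, fewer cells of a type and less RNA per cell cannot be told apart. The libraries of both days also differ in makeup. Counted as a share of the library instead of by the authors' scaling, the median gene of all tested lay 1.06 higher at P11 than at P10 in LPS dams and 0.69 higher in saline dams. On that share scale 27 members passed in LPS dams, against 72.1% of all genes (70.0% higher and 2.06% lower), and 24 in saline dams, against 60.6% (57.3% higher and 3.25% lower). There Acat2 and Mylip stayed below P10 in both treatments, Idi1 in LPS dams and Mvd in saline dams, and the other called falls among the 33 turned positive. None of those that stayed below passed there with all libraries. On the share scale 9 of the 11 falls called in LPS dams and all 6 in saline dams lay below the median gene. The exceptions were Cyp51 and Sc5d. The 4 called rises of each treatment lay above the median gene. Directions below are on the deposited scale.

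**Figure D1:**
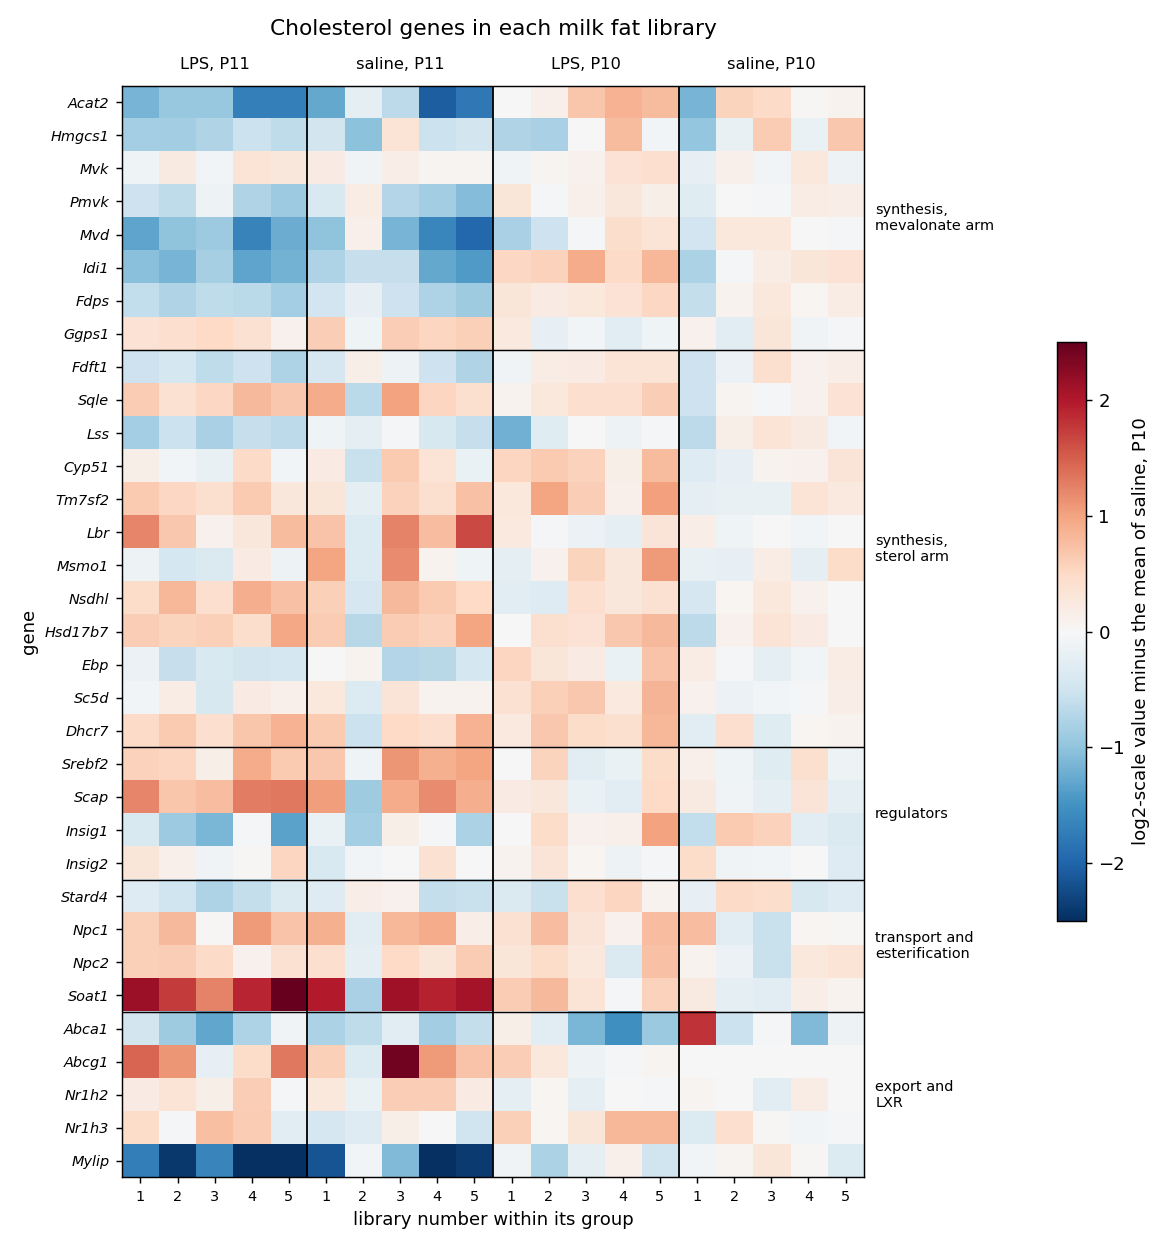
Log2-scale value of each of the 33 genes in each library, minus the mean of the P10 saline libraries; columns are libraries by group and rows are genes by role. The rows of Acat2, Pmvk, Mvd, Idi1, Fdps and Mylip are blue in most P11 libraries, and Soat1 and Scap are red there except in P11 saline library 2; as a share of the library Pmvk and Fdps turn positive in both treatments, Mvd in LPS dams and Idi1 in saline dams.

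The mevalonate arm, from acetyl-CoA to farnesyl and geranylgeranyl diphosphate, held 5 of the 11 falls in LPS dams and 5 of the 6 in saline dams. Of its 8 members, 5 fell and 1 rose in each treatment, with or without P11 saline library 2; on the share scale no fall passed. There Acat2 lay at -0.22 in LPS dams (adjusted p 0.64) and -0.15 in saline dams (adjusted p 0.786), Idi1 at -0.18 in LPS dams (adjusted p 0.552) and Mvd at -0.10 in saline dams (adjusted p 0.833), and the other falls turned positive. Its median difference was -0.89 in LPS dams, against 0.10 for all genes, and -0.57 in saline dams, against 0.05. Idi1 isomerises isopentenyl diphosphate, the step that provides both building blocks of the isoprenoid chain. In LPS dams it had 1195, 1091, 1394, 961 and 1071 normalised counts in the 5 P11 libraries, against 3671, 3819, 4886, 3581 and 4588 in the 5 P10 libraries. In saline dams it had 1457, 1667, 1679, 1001 and 902 at P11, against 1431, 2442, 2912, 3150.2 and 3270.3 at P10. The highest P11 library of the LPS dams lay far below their lowest P10 library, while the saline groups overlapped through P10 saline library 1, the first P10 value given. The difference was -1.77 ± 0.20 (SE) in LPS dams, with an adjusted p of 7.95e-06, and -0.92 ± 0.20 in saline dams, with an adjusted p of 0.00123, or -1.01 ± 0.21 without P11 library 2. The difference between the treatments did not pass, with an adjusted p of 0.856.

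Fdps makes farnesyl diphosphate, the branch point between sterols and other isoprenoids. Its counts were 6163, 5599, 6092, 5886 and 5256 in P11 LPS libraries, against 11675, 10898, 11467, 12222 and 13604 in P10 LPS libraries. In saline dams they were 6808, 8221, 6599.7, 5527 and 5078 at P11, against 6259, 10119, 11429.8, 9779 and 10843 at P10. No P11 LPS library reached a P10 LPS library, and the saline groups overlapped only through P10 library 1. The difference was -1.03 ± 0.15 in LPS dams (adjusted p 2.51e-05) and -0.57 ± 0.15 in saline dams (adjusted p 0.00378), or -0.66 ± 0.14 without P11 library 2. Acat2, the cytosolic thiolase that joins acetyl-CoA units, had 1137, 1327, 1329, 758 and 748 counts in P11 LPS libraries, against 2669, 2903, 4372, 4923 and 4631 in P10 LPS libraries. It had 1038, 2222, 1658, 575 and 712 in P11 saline libraries, against 1143, 3956, 3716, 2703 and 2842 in P10 saline libraries. The LPS groups did not overlap, and the saline groups again overlapped only through P10 library 1. The difference was -1.80 ± 0.34 in LPS dams (adjusted p 0.000255) and -1.20 ± 0.34 in saline dams (adjusted p 0.00702), or -1.44 ± 0.32 without P11 library 2.

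Mvd, which decarboxylates mevalonate diphosphate, averaged 704 ± 157 at P11 and 1687 ± 617 at P10 in LPS dams (SD, n = 5 each), a difference of -1.12 ± 0.31 with an adjusted p of 0.00521. In saline dams it averaged 865 ± 600.1 at P11 and 1763 ± 362 at P10, a difference of -1.13 ± 0.31 (adjusted p 0.00577) that became -1.44 ± 0.25 without P11 library 2. Pmvk, the phosphomevalonate kinase, averaged 1288 ± 302 at P11 and 2192 ± 209 at P10 in LPS dams, a difference of -0.75 ± 0.19 (adjusted p 0.00291). In saline dams its difference of -0.57 ± 0.19 (adjusted p 0.0189) lost its call without P11 saline library 4 (-0.50) or 5 (-0.45), and was -0.77 ± 0.15 without library 2. The one member of the arm that rose was Ggps1, which makes the geranylgeranyl diphosphate used to anchor small GTPases to membranes. It averaged 803 ± 85.7 at P11 and 576 ± 92.7 at P10 in LPS dams, and 880.4 ± 181 at P11 and 616 ± 105 at P10 in saline dams. Its rise was 0.43 ± 0.15 in LPS dams (adjusted p 0.0201), a call lost without P10 LPS library 4 (0.39). In saline dams it was 0.45 ± 0.15 (adjusted p 0.0179), a call lost without P10 saline library 2 (0.38), and 0.59 ± 0.12 without P11 library 2. Both calls ended when each library was centred on its median, at 0.16 in LPS dams and 0.23 in saline dams. The remaining pair did not pass in the fit of all libraries, though Hmgcs1 did in LPS dams with median centring. Hmgcs1, the HMG-CoA synthase and a standard SREBP2 target, averaged 1905 ± 191 at P11 and 3095 ± 1530.0 at P10 in LPS dams, and 2475 ± 941 at P11 and 3486 ± 1549.6 at P10 in saline dams. Mvk, the mevalonate kinase, averaged between 774 and 885 in all 4 groups.

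**Figure D2:**
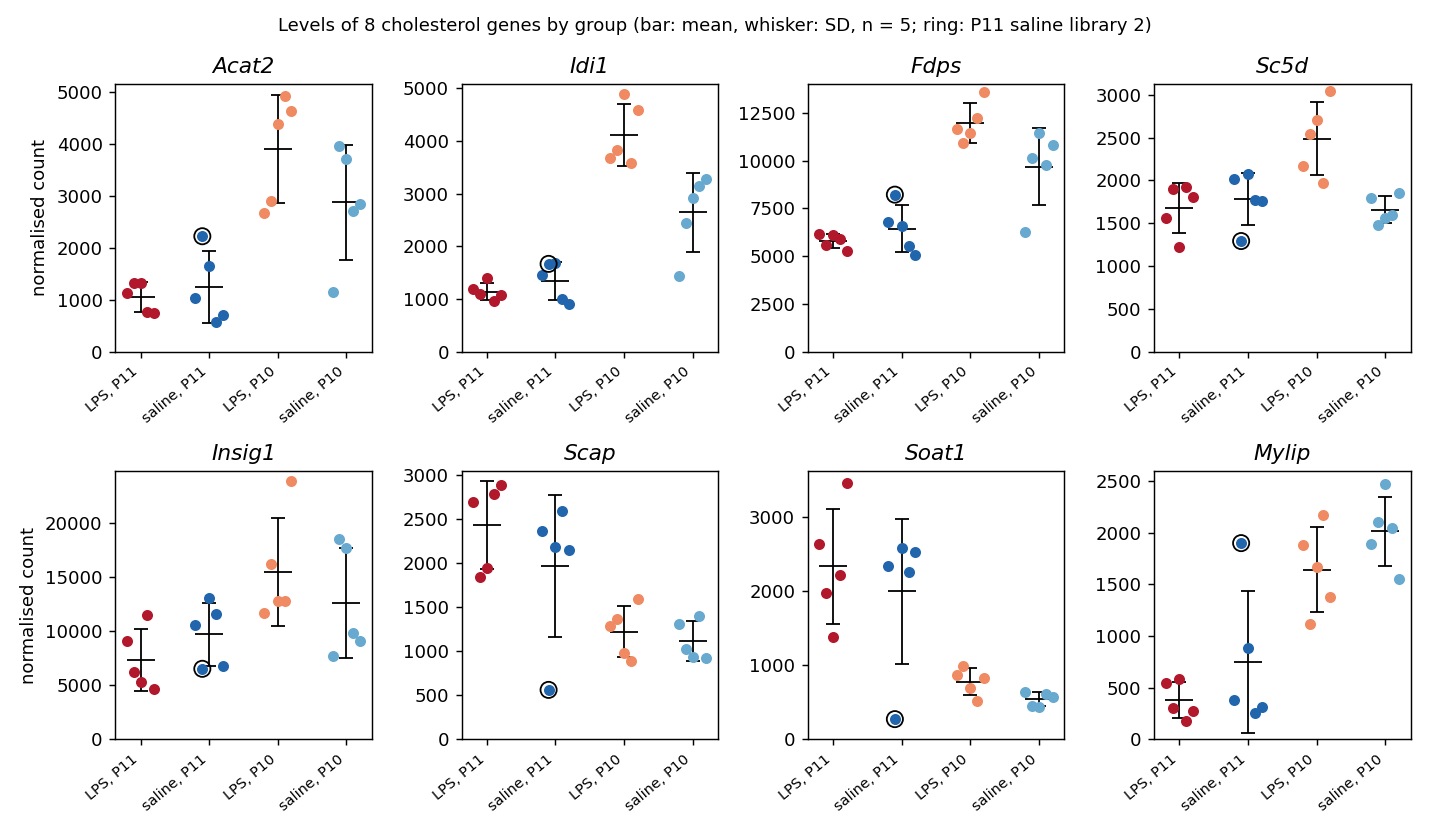
Normalised counts of 8 genes in each library by group, with the mean and SD of 5 libraries; the ring marks P11 saline library 2. For Idi1, Fdps, Acat2 and Mylip the P11 LPS libraries lie below all P10 LPS libraries, and for Soat1 and Scap above them; Fdps turns positive and Idi1 in saline dams turns positive when counts are taken as a share of the library.

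The sterol arm, from squalene to cholesterol, was mixed rather than uniform, and its falls in LPS dams (Fdft1, Cyp51, Ebp, Sc5d) all turned positive on the share scale. There Fdft1 and Ebp still lay below the median gene, while Cyp51 and Sc5d did not. Of the 12 members of the arm, 4 fell and 1 rose in LPS dams, with a median difference of -0.23. In saline dams 0 fell and 1 rose, with a median of 0.36, and without P11 library 2 it was 2 and 6. Fdft1, squalene synthase, the step that commits farnesyl diphosphate to sterols, averaged 2692 ± 237 at P11 and 4663 ± 537 at P10 in LPS dams. Its groups did not overlap there, and it fell by 0.77 ± 0.17 with an adjusted p of 0.000788. In saline dams its difference was -0.33 ± 0.17, with an adjusted p of 0.109, and -0.45 ± 0.15 without P11 library 2, with an adjusted p of 0.0168. Sc5d, the lathosterol desaturase, had 1561, 1897, 1228, 1924 and 1803 counts in P11 LPS libraries, against 2169.6, 2544, 2702, 1969 and 3039 in P10 LPS libraries. It had 2011, 1292, 2079, 1772 and 1759 in P11 saline libraries, against 1791, 1481, 1565, 1593 and 1852 in P10 saline libraries. The P10 LPS libraries stood above all others except P11 saline libraries 1 and 3, which lay above the lowest of them. Sc5d passed between days in LPS dams (-0.54 ± 0.14, adjusted p 0.00402) and did not pass in saline dams (0.09 ± 0.14, adjusted p 0.647, or 0.19 ± 0.13 without P11 library 2).

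Ebp, the sterol isomerase, fell by 0.72 ± 0.18 in LPS dams (adjusted p 0.0025). Cyp51, the lanosterol demethylase, averaged 3741 ± 747 at P11 and 5234 ± 834 at P10 in LPS dams, a difference of -0.48 ± 0.19 at an adjusted p of 0.0431; that call ended without any 1 of library 1, 2, 3 or 5 of either LPS group, at -0.50 to -0.42. Nsdhl, which removes the methyl groups at the fourth carbon of the ring together with Msmo1 and Hsd17b7, rose by 0.57 ± 0.21 in LPS dams (adjusted p 0.03), a call lost without any 1 of P10 LPS libraries 1 and 2 and P11 LPS libraries 2, 4 and 5, at 0.46 to 0.55. Quantile normalisation ended the call of Cyp51 (-0.21) and median centring that of Nsdhl (0.30), both in LPS dams. Lbr, a sterol reductase that is also an inner nuclear membrane protein, rose by 0.81 ± 0.27 in saline dams (adjusted p 0.02), a call lost without P11 saline library 3 (0.70) or 5 (0.60), and by 1.10 ± 0.21 without P11 library 2. In LPS dams Lbr did not pass in the fit of all libraries. It did, as higher, without P11 saline library 2 or P11 LPS library 3, with library weights, with LPS dams fitted alone and on the share scale. Without P11 library 2, 5 further members of the arm rose in saline dams: Sqle, the squalene epoxidase (0.72 ± 0.16), Hsd17b7 (0.71 ± 0.20), Dhcr7, the last reductase of the route (0.61 ± 0.15), Tm7sf2, another sterol reductase (0.50 ± 0.19), and Nsdhl (0.63 ± 0.17). Lss, which closes the sterol ring, and Msmo1 did not pass in either treatment in the fit of all libraries. Their differences were -0.35 ± 0.21 for Lss and -0.53 ± 0.27 for Msmo1 in LPS dams, and -0.27 ± 0.21 and 0.36 ± 0.27 in saline dams. In LPS dams both passed with median centring, Lss also without P10 LPS library 1, and Msmo1 also with LPS dams fitted alone.

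**Figure D3:**
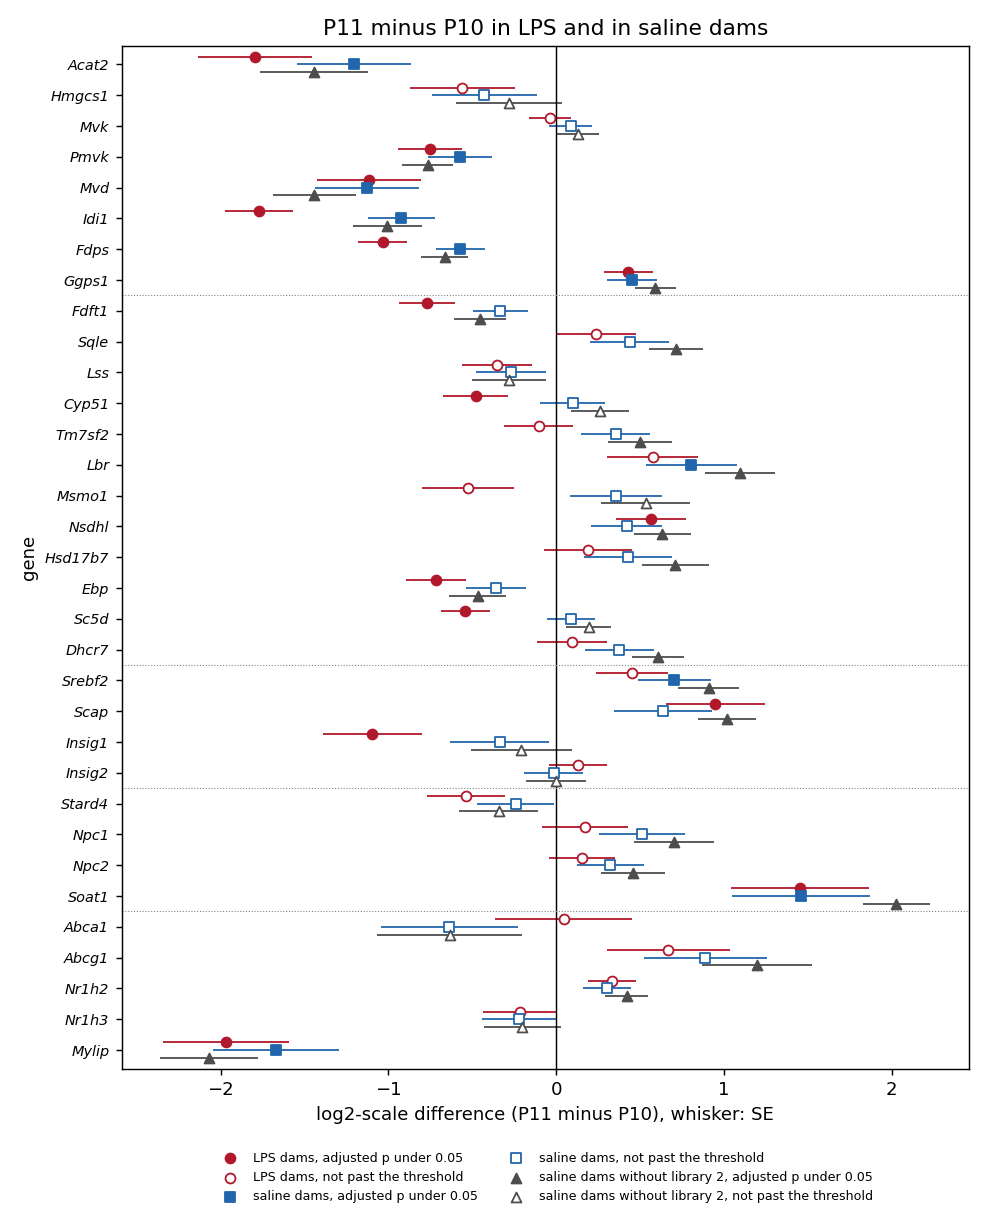
Log2-scale difference between P11 and P10 for each gene, with its SE, in LPS dams, saline dams and saline dams without P11 library 2; filled symbols passed the threshold. Acat2, Mvd, Idi1, Fdps and Mylip are filled and below 0 in all 3, and Soat1 and Ggps1 above 0; as a share of the library Fdps is above 0 in both treatments, Mvd in LPS dams and Idi1 in saline dams.

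Of the 4 regulators, Scap rose and Insig1 fell in LPS dams, Srebf2 rose in saline dams, and Insig2 did not pass; on the share scale all 4 lay above 0 in LPS dams. Scap, the escort of SREBP2, had 2698, 1844, 1942, 2783 and 2894 counts in P11 LPS libraries, against 1283, 1363, 979, 891 and 1596 in P10 LPS libraries. It had 2366, 560.2, 2186, 2594 and 2153 in P11 saline libraries, against 1309, 1026, 929, 1404 and 922 in P10 saline libraries. All 5 P11 LPS libraries and 4 of 5 P11 saline libraries lay above every P10 library, and P11 saline library 2 lay below them all. The rise was 0.95 ± 0.29 in LPS dams (adjusted p 0.0107). In saline dams it was 0.64 ± 0.29 with an adjusted p of 0.082, and 1.02 ± 0.17 with an adjusted p of 4.12e-05 without library 2. Srebf2 averaged 4175 ± 1201 at P11 and 2462 ± 502 at P10 in saline dams, a rise of 0.71 ± 0.22 with an adjusted p of 0.0119, or 0.91 ± 0.18 without P11 library 2. In LPS dams its difference was 0.45 ± 0.22, with an adjusted p of 0.086. It did pass there without any 1 of P11 saline library 2 (adjusted p 0.0297), P11 LPS library 3 and P10 LPS library 2, with library weights, with quantile normalisation and with LPS dams fitted alone, while median centring gave 0.18. Both differences of the activator's gene were positive, against negative ones for most mevalonate-arm enzymes on the deposited scale.

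Insig1, itself induced by SREBP2, went the way of the enzymes in LPS dams on the deposited scale and turned positive (0.55) on the share scale. It had 9088, 6258, 5264, 11478 and 4633 counts in P11 LPS libraries, against 11641, 16220.4, 12778, 12806 and 23839.8 in P10 LPS libraries. It had 10561, 6508, 13054, 11581 and 6762 in P11 saline libraries, against 7708, 18525, 17728, 9862 and 9116 in P10 saline libraries. The LPS groups did not overlap and the saline groups did; the call in LPS dams, given next, ended with quantile normalisation, at -0.70. The difference was -1.10 ± 0.30 in LPS dams (adjusted p 0.00441) and -0.34 ± 0.30 in saline dams (adjusted p 0.373), or -0.21 ± 0.30 without P11 library 2. Insig2, the paralogue that is less tied to SREBP2, did not pass, with group means between 162 and 196.

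Among the 4 genes of intracellular transport and esterification, Soat1 stood out. SOAT1 esterifies cholesterol in the endoplasmic reticulum for storage in droplets, and its gene is prominent in macrophages. It had 2636, 1982, 1377, 2226 and 3468 counts in P11 LPS libraries, against 865, 988, 699, 515 and 831 in P10 LPS libraries. It had 2337, 271, 2592, 2262 and 2532 in P11 saline libraries, against 637, 442, 431, 604 and 573 in P10 saline libraries. All P11 libraries of the LPS dams lay above all P10 libraries, and so did 4 of the 5 of the saline dams, while P11 saline library 2 was the lowest of all 20. The rise was 1.45 ± 0.41 in LPS dams (adjusted p 0.00604) and 1.46 ± 0.41 in saline dams (adjusted p 0.00687), or 2.03 ± 0.20 without library 2 (adjusted p 5.92e-08). Npc1 and Npc2, which pass cholesterol out of the lysosome, did not pass in the fit of all libraries, though Npc1 did in saline dams with library weights. Without P11 library 2 both were higher in saline dams, by 0.70 ± 0.24 for Npc1 (adjusted p 0.0165) and 0.46 ± 0.19 for Npc2 (adjusted p 0.0449). Stard4, a soluble sterol carrier and SREBP2 target, averaged 444 ± 64.8 at P11 and 709 ± 251 at P10 in LPS dams, with an adjusted p of 0.0577 for -0.54 ± 0.23.

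Neutrophil and part of the macrophage markers rose beside Soat1 and Scap, and lymphocyte markers did not. In LPS dams 10 of the 12 neutrophil markers and 6 of 15 macrophage and monocyte markers were called higher at P11 and 0 lower, where 30.9% of all genes were called higher; in saline dams 8 and 7 were called higher and 0 lower, where 25.6% of all genes were. Summed counts of the neutrophil markers were 6215 to 20666 in P11 LPS libraries, 182 to 36279 in P11 saline libraries, 83.5 to 925 in P10 LPS libraries and 54.5 to 242 in P10 saline libraries. Those of the macrophage and monocyte markers were 6787 to 16951 in P11 LPS libraries, 1889 to 50226 in P11 saline libraries, 964 to 3209.9 in P10 LPS libraries and 1107 to 1687 in P10 saline libraries. Marco was listed at 0 in all 20 libraries, Mpo in 18, Cd163 in 16 and Elane in 15. P11 saline library 2 had the lowest sum of its group for both lists, and the lowest value for Soat1 and Scap. Of 6 detected lymphocyte markers, 0 were called higher and 2 lower in each treatment. Among all genes, 22% were called lower in LPS dams and 21.2% in saline dams. The lymphocyte sums were 5.23 to 21.6 in P11 LPS libraries, 1.09 to 35.5 in P11 saline libraries, 57.4 to 84.8 in P10 LPS libraries and 58.1 to 101 in P10 saline libraries. Ms4a1 was listed at 0 in all 20 libraries. Myoepithelial markers also moved with the day, 4 of 6 called higher in LPS dams and 2 in saline dams, and 0 lower. Their sums were 7760.3 to 11684 in P11 LPS libraries, 2364 to 12846 in P11 saline libraries, of which library 2 was the lowest, 958 to 1954 in P10 LPS libraries and 1018 to 1627 in P10 saline libraries. Most of that sum was Acta2. Red blood cell markers were called lower for 2 of 4 in saline dams and for 0 in LPS dams, and higher for 0 in either. Luminal markers moved in both directions: 5 of 10 were called lower at P11 and 4 higher in LPS dams, and 4 lower and 4 higher in saline dams. The shares of all genes given above apply to these counts too. All marker counts for saline dams include P11 saline library 2. Csn2 averaged 2459080.0 normalised counts in P11 LPS libraries and 19158500.0 in P10 LPS libraries, while Epcam averaged 48067 in P11 LPS libraries and 11183 in P10 LPS libraries. The part of these markers in the changes of the cholesterol genes was not tested.

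**Figure D4:**
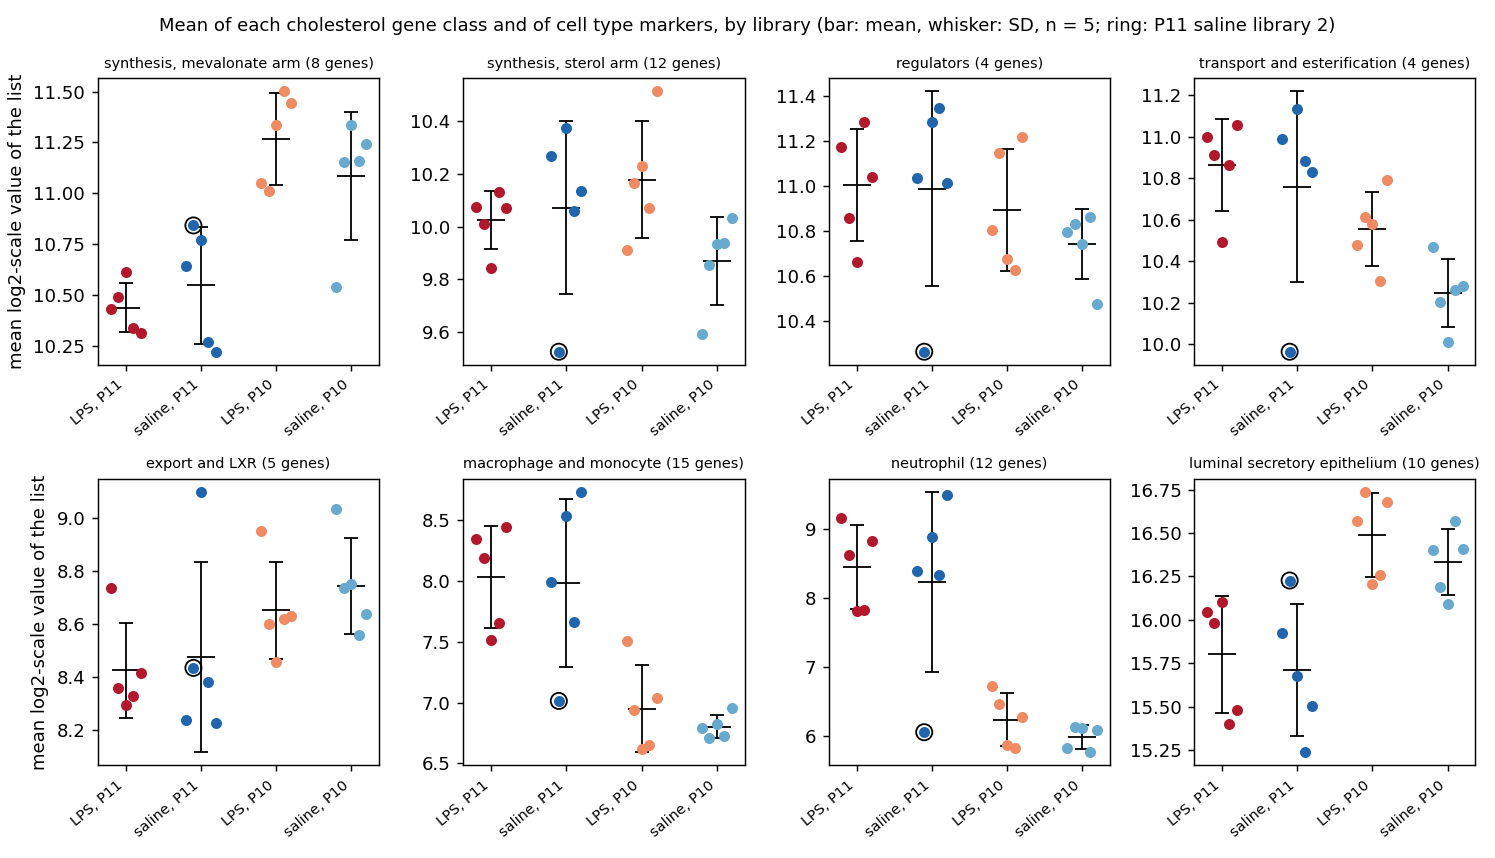
Mean log2-scale value of each class of cholesterol genes and of 3 marker lists in each library, by group, with the mean and SD of 5 libraries; the ring marks P11 saline library 2. The mevalonate arm averages lower at P11 than at P10, transport and esterification averages higher at P11 with the ringed library lowest of all, and neutrophil and macrophage markers are higher at P11 with the ringed library near the P10 level; as a share of the library the mevalonate arm averages higher at P11.

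The export genes and LXR receptors did not move as a group. Of 5 members, 1 fell and 0 rose in each treatment, with a median difference of 0.05 in LPS dams and -0.22 in saline dams. The one that fell was Mylip, and it kept that direction on the share scale, where its differences of -0.52 in LPS dams and -0.69 in saline dams did not pass with all libraries; without P11 saline library 2 the saline one did (-0.90, adjusted p 0.0468). It had 543, 305, 581, 180.2 and 276 counts in P11 LPS libraries, against 1879, 1116, 1671, 2177 and 1379.9 in P10 LPS libraries. It had 379.9, 1900.4, 885, 258 and 312 in P11 saline libraries, against 1888, 2104, 2478, 2046 and 1556 in P10 saline libraries. No P11 LPS library reached the P10 LPS range, and among saline libraries only P11 library 2 did. Its difference was -1.96 ± 0.38 in LPS dams (adjusted p 0.000282) and -1.67 ± 0.38 in saline dams (adjusted p 0.0015), or -2.07 ± 0.29 without P11 library 2. In log2 terms it was the largest fall among the 33 in both treatments.

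Abcg1, which loads cholesterol onto high-density lipoprotein and is abundant in macrophages, was near the lower end of detection, where 1 read was worth 0.555 to 2.23 normalised counts depending on the library. It had 104, 66.6, 2.87, 23.7 and 86.9 counts in P11 LPS libraries, against 31.6, 15.4, 4.33, 6.31 and 8.93 in P10 LPS libraries. It had 31.1, 1.14, 267, 64.3 and 38.0 in P11 saline libraries, against 7.47, 6.95, 7.28, 7.65 and 6.75 in P10 saline libraries. It did not pass in the fit of all libraries (0.67 ± 0.37 in LPS dams and 0.89 ± 0.37 in saline dams), and did in saline dams without P11 library 2 (1.20 ± 0.33, adjusted p 0.00406). In saline dams it also passed with a pseudocount of 10, with a filter at a mean value of 6.5 and with library weights. Library weights gave the call in LPS dams too, and leaving out P11 LPS library 3 gave it in both treatments. On the share scale it passed in both. Abca1, which starts the export of cholesterol to apolipoprotein A-I, averaged 81.4 to 239.8 in the 4 groups, with an SD of 297 in P10 saline libraries, and did not pass in the fit of all libraries. It passed in saline dams with quantile normalisation and in LPS dams on the share scale. Nr1h2 averaged 2695 ± 485 at P11 and 2101 ± 198 at P10 in LPS dams, and 2828 ± 629 at P11 and 2243 ± 256 at P10 in saline dams. Nr1h3 averaged 162 ± 67.2 at P11 and 195 ± 60.5 at P10 in LPS dams, and 87.4 ± 29.7 at P11 and 113 ± 35.7 at P10 in saline dams. Neither LXR gene passed in the fit of all libraries, and without P11 saline library 2 Nr1h2 was higher at P11 in saline dams (0.42 ± 0.13) and in LPS dams (0.33 ± 0.12). With quantile normalisation both genes passed in both treatments. Nr1h2 also passed with library weights in both, and in LPS dams when P11 LPS library 5 was left out or LPS dams were fitted alone. On the share scale Nr1h2 passed in both treatments and Nr1h3 in LPS dams.

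LPS itself gave no limma call among the 33 genes at 2 h (P10). By limma, 0 of 33 passed, against 0.0% of all genes, and 7 members had an unadjusted p under 0.05, against 622 of the 14022 genes. In the authors' deposited table for P10, 10 of the 33 members are listed, as are 1024 genes in all (6.11% of 16748). There 48 genes have an adjusted p under 0.05. Sc5d is the one member among them, with an adjusted p of 0.0206 at a log2 fold change of 0.588 with a standard error of 0.146. The values behind this lay mostly above saline: 26 of the 33 differences were positive, against 43.8% of all genes, with a median of 0.19 against 0 for all genes, and in the sterol arm 11 of 12 were, with a median of 0.36. Among genes with a mean value of at least 6.5, 49.1% were positive. As a share of the library 16 of 33 were positive, against 18.3% of all genes. The 5 P10 LPS libraries did not overlap the 5 P10 saline libraries for Sc5d and Idi1, both higher, where 0.378% of all genes were higher without overlap. The 4 of smallest p were Sc5d at 0.55 ± 0.14 (adjusted p 0.844), Idi1 at 0.66 ± 0.20 (adjusted p 0.897), Tm7sf2 at 0.60 ± 0.21 (adjusted p 0.963) and Cyp51 at 0.54 ± 0.19 (adjusted p 1.0). Tm7sf2 averaged 129 ± 53.8 in LPS dams and 61.2 ± 23.3 in saline dams, and Cyp51 averaged 5234 ± 834 in LPS dams and 3575 ± 641 in saline dams. The authors' deposited table gives log2 fold changes of 0.641 for Idi1, 1.085 for Tm7sf2 and 0.552 for Cyp51, with adjusted p of 0.142, 0.134 and 0.0956. The 4 regulators had differences of 0.05 to 0.34, none with an unadjusted p under 0.05. Export genes and LXR receptors were 2 positive and 3 negative. Nr1h3 was among the positive ones, and the authors' deposited table gives it a log2 fold change of 0.781 with an adjusted p of 0.206. It is the only member listed there on both days.

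At 24 h (P11) LPS again gave no call among the 33, where 0.0856% of all genes passed, all higher. A single member, Nr1h3, had an unadjusted p under 0.05, against 1004 of 14022 genes, and 3 did without P11 saline library 2, against 1443 of 14020 genes. Of the 33 differences 12 were positive and 21 negative, with a median of -0.06 against 0.02 for all genes, of which 53.9% were positive. Among genes with a mean value of at least 6.5 it was 49.6%. On the share scale 24 members and 74.2% of all genes were positive. Nr1h3 was at 0.53 ± 0.22 (adjusted p 0.653), Lss at -0.42 ± 0.21 (0.702), Msmo1 at -0.53 ± 0.27 (0.713) and Mylip at -0.60 ± 0.38 (0.787). Mylip owed most of its value to P11 saline library 2 and was at -0.20 ± 0.29 without it. Msmo1, the sterol methyl oxidase, averaged 1561 ± 293 in LPS dams and 2482 ± 1229 in saline dams. No member separated the 2 groups at P11 with all libraries, where 0.385% of all genes were higher and 0.264% lower without overlap. Without library 2, Hmgcs1 and Ggps1 were lower in LPS dams without overlap, as were 1.18% of all genes, while 1.01% were higher. Without library 2, Msmo1 was at -0.70 ± 0.27, Lss at -0.41 ± 0.22, Hmgcs1 at -0.45 ± 0.32 and Nr1h3 at 0.51 ± 0.23. These are the values to set beside the authors' deposited table for P11, whose base means keep a nearly constant ratio to means without that library. In the authors' deposited table Msmo1 (log2 fold change -0.805), Lss (-0.438), Hmgcs1 (-0.493) and Nr1h3 (0.843) are the members listed, with adjusted p of 0.257, 0.375, 0.467 and 0.573; 6.48% of all genes are listed there.

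**Figure D5:**
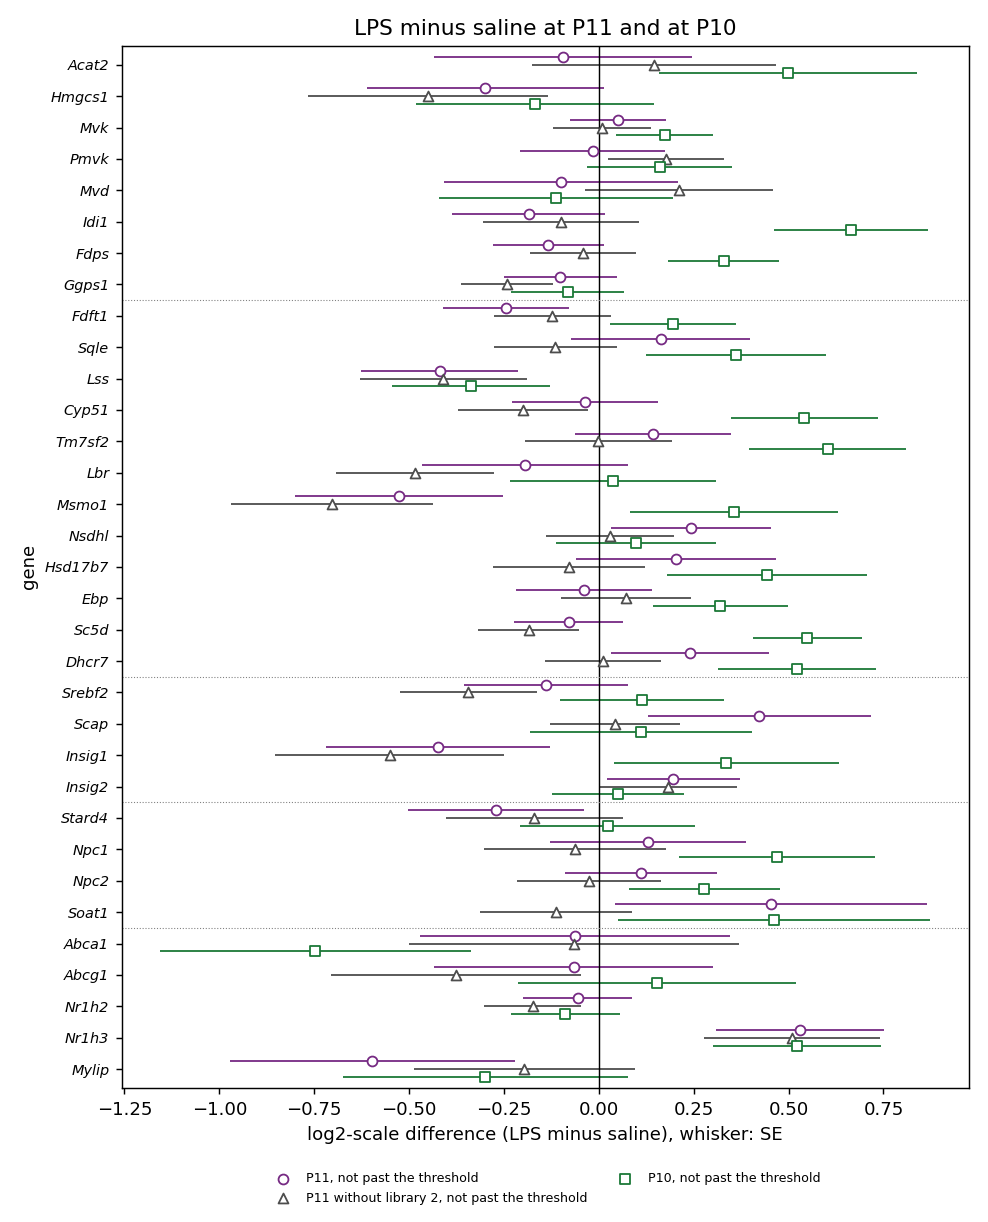
Log2-scale difference between LPS and saline dams for each gene, with its SE, at P11, at P11 without saline library 2 and at P10; all symbols are open because none passed the threshold. At P10 most sterol-arm symbols lie right of 0, and at P11 with all libraries most mevalonate-arm symbols lie at or left of it. Without saline library 2 the P11 symbols of Acat2, Pmvk and Mvd lie right of 0. As a share of the library 8 of 12 sterol-arm genes lie right of 0 at P10 and 7 of 8 mevalonate-arm genes do at P11.

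The change of the LPS effect between P11 and P10, which is also the difference between the day changes of LPS and saline dams, was not called for any member, where 0.0357% of all genes were. The difference was negative for 26 of 33, including 18 of the 20 enzymes, with 5 members at an unadjusted p under 0.05, against 635 of 14022 genes. Of all genes 55.5% were positive, and of those with a mean value of at least 6.5, 50.7% were. On the share scale 8 of 33 were negative, where 83.1% of all genes were positive. The smallest p belonged to Sc5d at -0.63 ± 0.20 (adjusted p 0.856), Idi1 at -0.85 ± 0.29 (0.856), Msmo1 at -0.88 ± 0.39 (0.968) and Fdps at -0.46 ± 0.21 (0.968). The larger falls of Idi1, Fdps and Insig1 in LPS dams than in saline dams were not shown to differ between treatments.

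Among 51 further genes of the pathway that were detected, 0 passed in either LPS comparison, with 4 at an unadjusted p under 0.05 at P10 and 1 at P11. By day, and on the deposited scale, the shares of all genes called higher and lower were 30.9% and 22% in LPS dams and 25.6% and 21.2% in saline dams. Against these, 6 rose and 2 fell of 14 export and lipoprotein genes in LPS dams, against 5 and 3 in saline dams. Of 13 uptake and transfer genes, 2 rose and 7 fell in LPS dams, against 2 and 5 in saline dams. Of 9 SREBP-processing genes, 1 rose and 3 fell in each treatment; of 6 further synthesis genes 0 rose and 2 fell in LPS dams, against 2 and 0 in saline dams. Of 9 isoprenoid-using genes, 2 rose and 1 fell in LPS dams, against 1 and 1 in saline dams. Without P11 saline library 2, 5 rose and 3 fell of the export genes in saline dams, 3 and 5 of the uptake genes, 3 and 3 of the SREBP-processing genes, 3 and 1 of the synthesis genes and 2 and 2 of the isoprenoid genes. As a share of the library, only 1 of the 51 was called lower in each treatment. Srebf1, which encodes SREBP1, the factor that drives fatty acid synthesis, fell by 3.19 ± 0.54 in LPS dams (adjusted p 0.000105) and fell by 2.88 ± 0.54 in saline dams (adjusted p 0.00042), or fell by 3.47 ± 0.41 without P11 library 2, and it fell on the share scale too, by 1.55 in LPS dams and 1.77 in saline dams. Osbpl2, an oxysterol-binding transfer protein, fell by 1.85 ± 0.24 in LPS dams and by 1.25 ± 0.24 in saline dams (-1.48 without P11 library 2), and lay at -0.24 in LPS dams and -0.16 in saline dams on the share scale. Mbtps1, the protease that first cuts the SREBPs, fell by 0.76 ± 0.12 in LPS dams and 0.73 ± 0.12 in saline dams (-0.79 without P11 library 2), and turned positive on the share scale. So did Scarb1, the high-density lipoprotein receptor, which fell by 1.14 ± 0.24 in LPS dams and 0.89 ± 0.24 in saline dams (-1.10 without P11 library 2). Apoe, the apolipoprotein that macrophages secrete with exported cholesterol, rose on both scales, by 2.08 ± 0.44 in LPS dams and 2.28 ± 0.44 in saline dams on the deposited one (2.25 without P11 library 2).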

How the data were processed

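RNA from milk fat was sequenced in 20 libraries. The submitters' processing notes name DESeq2 and rn6 (rat); no version, aligner, counter or annotation is given in the sources used here. The deposited table, made by the authors, holds log2-scale values for 16748 genes in 20 columns, each named for its group. The file calls them rlog, but their single lowest value (5.46, 30.4% of entries) has the form of a variance-stabilising transformation, which was inverted to give normalised counts. Within a library low values lie on steps, and 90.8 to 98.6% of values up to 5 steps fell within 0.1 of a whole step (20% by chance), which gave the depth estimates. The step varied slightly by gene, so whole reads were not recovered and no count test was run. The authors' deposited tables for each day list genes of their LPS comparison with, per the file headers, a base mean in another unit (at P11 proportional to means without P11 saline library 2), log2 fold changes and standard errors, a Wald statistic (a score) and the raw and adjusted p-value; they were read, not tested.

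All 4 groups entered 1 model per gene (limma 3.58.1, R 4.3.3, mean-variance trend), after the same code was tested on simulated data. The 2726 genes at the lowest value everywhere were left out. P-values are two-sided, Benjamini-Hochberg adjusted over 14022 genes, threshold 0.05, and measure the spread between libraries, some of which share a dam across days. The members and lists were chosen with earlier results of these data known. Members past the threshold were named for each comparison, or the 4 of smallest p where fewer than 4 passed, and at most the 3 of smallest p per further list. Alternatives changed the libraries, scaling, pseudocount, filter, trend, weights and the libraries sharing the spread. Levels of different genes are not compared, since counts are not per length.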

Additional observations from a re-analysis of the deposited data

Results flagged for a closer look

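In 7 of the 132 sets of 5 libraries (33 genes in 4 groups), 1 library stood apart from the other 4 by Dixon's criterion, which chance meets in about 1 set in 20. In 5 of them it was P11 saline library 2, lowest of its group on the log2 scale: Ggps1 at 9.33, Nsdhl at 9.20, Hsd17b7 at 6.84, Scap at 9.33 and Soat1 at 8.46. The same library had the lowest neutrophil and macrophage marker sums among the P11 saline libraries, and the part of this in the values was not tested. P10 saline library 1 stood apart as the lowest of its group for Fdps, at 12.63, and was also lowest there for Idi1 and Acat2. P10 LPS library 1 was the lowest of its group for Lss, at 9.48.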

How the results depend on the processing

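No member was called in either LPS comparison or in their difference under any of the alternatives run. For P11 against P10, the count in saline dams ranged between 8 and 22 over single libraries left out (22 without P11 saline library 2), and in LPS dams between 13 and 19. It rose to 20 in saline dams with library weights. With counts taken as a share of the library, a setting chosen after seeing the data, it was 24 in saline dams and 27 in LPS dams, or 28 in each without P11 saline library 2, all higher at P11 except Mylip in saline dams without that library. Of 403 other settings for single named genes, 360 kept direction and side of the threshold, 20 lost the call and 23 changed sign; of 740 with 1 library left out, 721 kept both, 19 lost the call and 0 changed sign. All 23 sign changes came with the share of the library, on which the median gene lay 1.06 higher at P11 in LPS dams and 0.69 higher in saline dams. Saline dams then gave Idi1 at 0.16 (0.28 without P11 saline library 2), Fdps at 0.55 (0.67) and Pmvk at 0.50 (0.52); LPS dams gave Fdps at 0.61, Fdft1 at 0.86, Ebp at 0.80, Pmvk at 0.84, Sc5d at 1.07, Insig1 at 0.55, Mvd at 0.43 and Cyp51 at 1.16, and the change of the LPS effect gave Fdps at 0.065. Calls that ended under planned settings were Ggps1 with median centring in both treatments, Nsdhl with median centring, Insig1 and Cyp51 with quantile normalisation, Cyp51 with no filter, and Ggps1, Pmvk and Lbr with saline dams fitted alone. Median centring also added calls, of Hmgcs1, Lss, Msmo1 and Stard4 in LPS dams and of Ebp and Fdft1 in saline dams. Quantile normalisation added Nr1h2, Nr1h3, Srebf2, Stard4 and Tm7sf2 in LPS dams and Abca1, Nr1h2 and Nr1h3 in saline dams. No paired analysis was possible because the value columns carry no dam numbers. With 5 libraries a group and SEs of 0.13 to 0.41 log2 units for the members, small differences between LPS and saline dams could not be resolved. Larger ones, such as those of Sc5d and Idi1 at P10, were several times their SE and were not called by limma either. Their smallest limma adjusted p over the settings run was 0.105 for Sc5d and 0.211 for Idi1. The authors' deposited table gives Sc5d an adjusted p of 0.0206 at P10. Abcg1 rests on few reads per library.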
